A study of Mus musculus with 6 samples.

Results

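Voltage-gated calcium channel subunits and the RGK GTPases that regulate them were examined in the mouse cochlear nucleus. The set consisted of 10 genes, of which 9 were represented on the array by 15 probe sets annotated to 1 gene symbol each, out of 12394 such genes and 20393 such probe sets. It comprised the pore-forming subunits Cacna1a, Cacna1b, Cacna1d and Cacna1g, the auxiliary subunits Cacnb3, Cacnb4, Cacna2d1 and Cacna2d2, and the GTPases Rem2 and Gem. Cacnb3 was the gene without such a probe set and was not analysed here. Rem2 had been included because it was low on the infused side, so its difference between the sides is given as a description without a p-value.

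The samples were total RNA from the cochlear nucleus of mice at postnatal day 21, taken after tetrodotoxin, which blocks sodium channels and so stops action potentials, had been delivered by osmotic pump to 1 cochlea for 24 h. The infused side (ipsilateral) and the opposite side (contralateral, which the labels call control) were each represented by 3 replicates, every replicate being a pool from 10 to 12 mice hybridised to 1 Affymetrix array. Strain and sex were not given in the sources used here, all animals had been infused, and no group came from untreated mice, so a difference could lie on either side. The values are log2 expression values made by the authors with GCRMA. This method corrects background from probe sequence, and it pulls dim probe sets toward a floor.

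A high-voltage-activated calcium channel consists of a pore-forming alpha1 subunit, which sets the channel type, with a cytoplasmic beta subunit and an extracellular alpha2delta subunit that raise its number at the membrane and shape its gating. P/Q-type and N-type channels open at nerve terminals and let in the calcium that triggers transmitter release, and both the endings of the auditory nerve and the neurons they contact use them. RGK proteins are small GTPases that bind beta subunits and reduce calcium current. Rem2 is the member of this family best known in neurons, where its messenger RNA is induced by calcium entry through voltage-gated channels.

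The proximal promoters of Rem2 and Cacna1b are shown because these were the genes of the set with every ipsilateral array below every contralateral one. Both are RefSeq sequences of build GRCm38.p6 that run 5′ to 3′ from 250 bases before to 50 bases after an annotated start. The Rem2 window is chr14:54475850-54476149 on the plus strand and the Cacna1b window is chr2:24763103-24763402 on the minus strand. Capitals mark the motifs found, counted with +1 at the start.
Rem2: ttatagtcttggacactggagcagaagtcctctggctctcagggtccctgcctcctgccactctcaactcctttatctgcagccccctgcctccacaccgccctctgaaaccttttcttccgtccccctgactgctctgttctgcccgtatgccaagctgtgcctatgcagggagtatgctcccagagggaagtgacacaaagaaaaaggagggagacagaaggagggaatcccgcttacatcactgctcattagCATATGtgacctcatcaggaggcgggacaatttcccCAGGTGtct
Cacna1b: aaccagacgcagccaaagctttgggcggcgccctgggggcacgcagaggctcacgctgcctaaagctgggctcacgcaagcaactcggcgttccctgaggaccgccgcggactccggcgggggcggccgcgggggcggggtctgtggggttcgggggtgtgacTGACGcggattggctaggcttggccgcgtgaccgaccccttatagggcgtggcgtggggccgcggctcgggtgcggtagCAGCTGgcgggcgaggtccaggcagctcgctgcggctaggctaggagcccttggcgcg

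Motifs bound by factors that respond to calcium and cyclic AMP, and the common E-box, were searched on both strands. The Rem2 window held an E-box (CANNTG) beginning at base 6 and another at base 42 after the start. It held no full cyclic AMP response element (TGACGTCA), no copy of the short form of that element (TGACG, which lies within the full one), no AP-1 motif (TGANTCA) and no CArG box. The Cacna1b window held the short form beginning at base -87 and an E-box at base -8. Of 32841 promoter windows of 300 bases, 72.3% held an E-box, 20.8% the short form, 7.81% an AP-1 motif, 1.79% a full element and 1.63% a CArG box. In all, 7 of the 10 genes had a window in the table, with 11 windows between them. No window of the set held a full element, an AP-1 motif or a CArG box, and the short form occurred in 1 other, that of Cacna2d1.

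No gene of the set passed the test in either direction. Rem2 was part of the fit, but as it had been chosen for being lower on the infused side, it is only described. Probe sets averaging above 4 on the log2 scale over the 6 arrays were tested with limma, which left 12 of the 15 probe sets, for 8 genes, among 15298 over the array. No member passed the Benjamini-Hochberg threshold of 0.05, nor did any other probe set of the array (0 of 15298, a share of 0%). At an unadjusted limma p under 0.05 the count was 364 over the array. With an equal-variance test per probe set it was 423, and again 0 after adjustment.

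Among the 12 probe sets 5 were lower and 7 higher on the infused side, and their median log2 difference was 0.04. Without Rem2, 4 of 11 were lower and 7 higher, with a median of 0.05. Bulk tissue cannot tell fewer cells that express a gene from less messenger RNA per cell. Over all tested probe sets 51.8% were lower and the median was -0.01. The 12 had been filtered on their mean, so these counts describe the probe sets that were bright enough and not the whole set. At an unadjusted limma p under 0.05 there were 0 of the 11 probe sets other than Rem2. The share over the array was 1.22% lower and 1.16% higher. With the sides not overlapping, Cacna1b was lower and 0 were higher, against 3.44% and 2.82% over the array. Rem2 did not overlap either, but it was chosen for being lower and is left out of both counts.

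**Figure D1:**
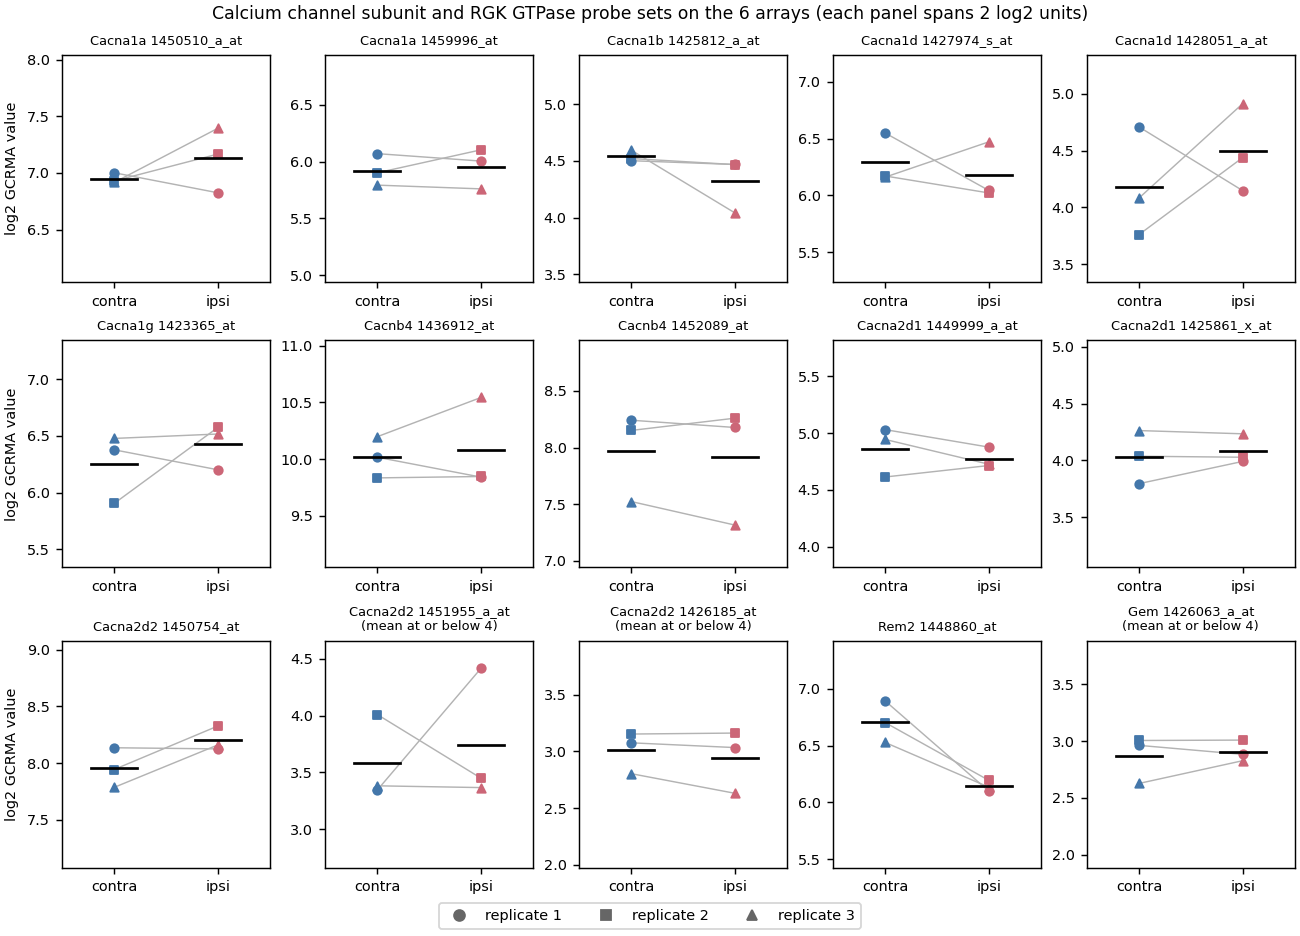
Log2 GCRMA values of the 15 probe sets on the 6 arrays, contralateral (blue) and ipsilateral (red), with lines joining arrays of 1 replicate number and black bars at the mean of 3 arrays. Each panel spans 2 log2 units. In the panels of Rem2 and Cacna1b all 3 ipsilateral values lie below all contralateral ones, for Cacna1b narrowly on ipsilateral arrays 1 and 2.

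Of the pore-forming subunits, Cacna1a encodes the P/Q-type channel, the main calcium channel of fast synapses in the brainstem. Its brighter probe set (1450510_a_at) measured 7.00, 6.93 and 6.92 on contralateral arrays 1, 2 and 3 and 6.83, 7.17 and 7.39 on ipsilateral arrays 1, 2 and 3. The sides overlapped, since ipsilateral array 1 was the lowest of all 6 and the other two ipsilateral arrays were the highest. The difference was 0.18 (SE 0.15; 95% interval -0.18 to 0.54; limma adjusted p = 1.00), a 1.13-fold higher signal. The second probe set (1459996_at) measured 6.07, 5.90 and 5.79 contralaterally and 6.01, 6.10 and 5.76 ipsilaterally. It differed by 0.03 (95% interval -0.27 to 0.34), and across the 6 arrays the values of the probe sets did not run together (Pearson r = -0.26, a description).

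The difference of the brighter Cacna1a probe set moved with single arrays. It was 0.33 without ipsilateral replicate 1, 0.36 when contralateral replicate 1 was left out too, 0.05 without ipsilateral replicate 3 and 0.03 when contralateral replicate 3 was left out too. Genes of the choroid plexus, a tissue described below, were low on ipsilateral arrays 2 and 3, where this probe set was high. With the level of those genes as a covariate the difference was 0.03, and without these 2 arrays, an alternative chosen after seeing the data, it was -0.12. In the same fits the difference of Cacna1d 1428051_a_at went from 0.32 to 0.17 and -0.04. That of Cacna1g went from 0.18 to 0.05 and -0.05, and that of Cacna2d2 1450754_at from 0.25 to 0.22 and 0.17. The brighter Cacna1d probe set went from -0.11 to -0.16 and -0.25, and the second Cacna1a probe set from 0.03 to 0.07 and 0.08. Cacna1b went from -0.21 to -0.15 and -0.07. The Cacnb4 probe sets went from 0.06 to -0.06 and -0.17, and from -0.05 to 0.10 and 0.20. Those of Cacna2d1 went from -0.09 to -0.04 and 0.01, and from 0.05 to -0.01 and -0.04. The part of the choroid plexus in these differences was not tested.

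Cacna1b, which encodes the N-type channel, also a channel of presynaptic terminals, was dim. It measured 4.50, 4.52 and 4.60 contralaterally and 4.47, 4.47 and 4.04 ipsilaterally. All ipsilateral values lay below all contralateral ones, but 2 of the 3 by less than 0.1, and ipsilateral array 3 carried most of the difference of -0.21 (95% interval -0.54 to 0.11; limma adjusted p = 1.00). Leaving that array out gave a difference of -0.07, and leaving out replicate 3 on both sides gave -0.04.

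Cacna1d encodes an L-type channel that opens at relatively negative voltages and is required for hearing. Its brighter probe set (1427974_s_at) measured 6.55, 6.17 and 6.16 contralaterally and 6.04, 6.02 and 6.47 ipsilaterally. The dimmer one (1428051_a_at) measured 4.71, 3.76 and 4.08 contralaterally and 4.15, 4.44 and 4.91 ipsilaterally. In both, replicate 1 was lower and replicate 3 higher on the infused side, and the sides overlapped. The mean differences had opposite signs, -0.11 (95% interval -0.51 to 0.29) and 0.32 (95% interval -0.36 to 0.99), with a limma adjusted p of 1.00 for each. The values of the probe sets across the arrays correlated at r = 0.68, given as a description. Without replicate 1 of both sides the differences were 0.08 and 0.76, and without replicate 3 of both sides they were -0.33 and 0.06. Without ipsilateral replicate 3 they were -0.26 and 0.11.

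Cacna1g encodes a T-type channel, which opens near the resting potential and promotes burst firing. It measured 6.38, 5.90 and 6.48 contralaterally and 6.20, 6.57 and 6.52 ipsilaterally. The low value of contralateral array 2 made up most of the difference of 0.18 (SE 0.18; 95% interval -0.25 to 0.60; limma adjusted p = 1.00), which was 0.00 without that array and -0.07 without replicate 2 of both sides.

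**Figure D2:**
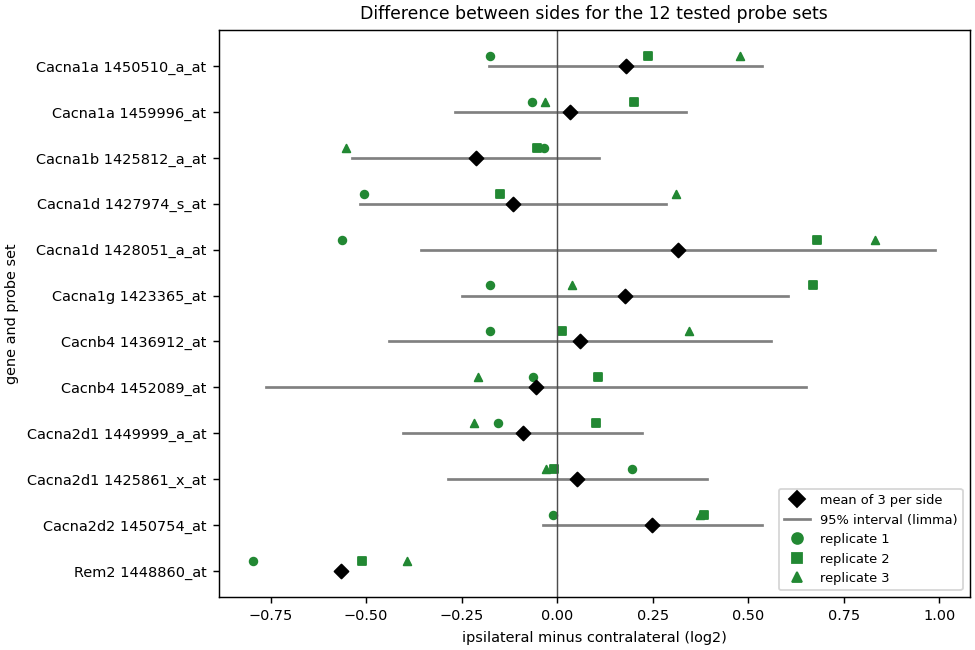
Ipsilateral minus contralateral difference (log2) of the 12 tested probe sets, as the mean (diamond), its 95% interval from limma (grey line, not drawn for Rem2, which was chosen on this difference) and the difference within each replicate number (green). All 11 intervals include 0, and 10 of the 11 probe sets have replicates of both signs.

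Among the auxiliary subunits, Cacna2d2 encodes an alpha2delta subunit that raises channel number at the membrane and whose loss causes ataxia and epilepsy in the ducky mouse. Its bright probe set (1450754_at) measured 8.14, 7.94 and 7.79 contralaterally and 8.13, 8.33 and 8.16 ipsilaterally. Replicates 2 and 3 were higher on the infused side by 0.38 and 0.37, while replicate 1 differed by -0.01, so the sides overlapped by that small margin. The difference was 0.25 (SE 0.12; 95% interval -0.04 to 0.54), a 1.19-fold higher signal, and its unadjusted limma p of 0.0788 was the smallest of the 11 probe sets other than Rem2 (limma adjusted p = 1.00). It stayed positive under the alternatives tried for it, between 0.16 and 0.38, and was 0.17 without the ipsilateral arrays low in choroid plexus genes. It was 0.38 without replicate 1 of both sides and 0.16 without contralateral replicate 3.

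The other probe sets of Cacna2d2 were too dim to test. The first (1451955_a_at) lay between 3.34 and 4.01 contralaterally and between 3.37 and 4.42 ipsilaterally, with a mean of 3.66 just under the minimum. The second (1426185_at) had a mean of 2.98. The bright probe set therefore stood alone for this gene.

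Cacna2d1, an alpha2delta subunit that binds gabapentin, was dim. Its brighter probe set (1449999_a_at) measured 5.03, 4.61 and 4.94 contralaterally and 4.88, 4.71 and 4.73 ipsilaterally, a difference of -0.09 (95% interval -0.40 to 0.22). The other (1425861_x_at), with a mean of 4.06 just above the minimum, differed by 0.05 (95% interval -0.29 to 0.39). The sides overlapped for both probe sets. The first was at -0.22 without contralateral replicate 2 and -0.01 without contralateral replicate 1, and the second at 0.17 without contralateral replicate 3 and -0.07 without contralateral replicate 1.

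Cacnb4 encodes the beta subunit that is abundant in the cerebellum and absent from the lethargic mouse, and beta subunits are a site at which RGK proteins bind the channel. Its brighter probe set (1436912_at) measured 10.02, 9.83 and 10.20 contralaterally and 9.84, 9.85 and 10.54 ipsilaterally. The dimmer one (1452089_at) measured 8.24, 8.15 and 7.52 contralaterally and 8.18, 8.26 and 7.32 ipsilaterally. Neither separated the sides, with differences of 0.06 (95% interval -0.44 to 0.56) and -0.05 (95% interval -0.76 to 0.65) and a limma adjusted p of 1.00 for each. Under the alternatives the first lay between -0.17 and 0.18 and the second between -0.28 and 0.25.

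The values of Cacnb4 differed more by replicate number than by side, but this was not particular to Cacnb4. On both arrays of replicate 3 the brighter probe set was above, and the dimmer one below, every array of replicates 1 and 2. So were 18% and 14.9% of all probe sets. Of the 12 member probe sets 2 were above and 2 below in this way. Besides those of Cacnb4, the dimmer probe set of Cacna2d1 was above and the dimmer one of Cacna1a below. The means of the 2 arrays of replicates 1, 2 and 3 were 9.93, 9.84 and 10.37 for the brighter Cacnb4 probe set. For the dimmer Cacnb4 probe set they were 8.21, 8.20 and 7.42. Over the 6 arrays the 2 probe sets correlated at r = -0.92, a description over few arrays. In a limma F test of the replicate number with the side as a block, chosen after these values were seen, the limma adjusted p was 0.390 and 0.359. At an unadjusted p under 0.05 these were the 2 of the 12 member probe sets, where 12.4% of all probe sets passed, and 0 passed after adjustment. Granule and Purkinje cell markers, of the cerebellum that adjoins the nucleus, moved with the replicate number as well. The 11 tested markers averaged 9.66, 9.59 and 10.03 contralaterally and 9.51, 9.50 and 10.06 ipsilaterally. For 9 of these 11 both arrays of replicate 3 were the highest, against 18% of all probe sets. Their part in the values of Cacnb4 was not tested.

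**Figure D3:**
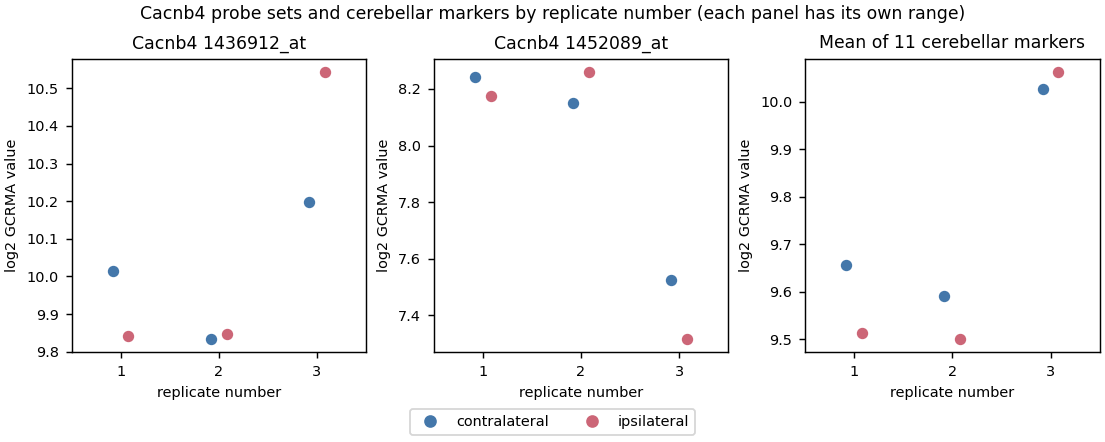
Log2 values of both Cacnb4 probe sets and the mean log2 value of 11 cerebellar markers, by replicate number, on the contralateral (blue) and ipsilateral (red) arrays. Replicate 3 stands apart in each panel, higher for the brighter probe set and the markers and lower for the dimmer probe set.

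The precision of 3 arrays per side, in the fit without a replicate block, set what could be seen. For all 11 tested probe sets other than Rem2 the 95% interval of the difference included 0 and lay inside a 2-fold change in either direction, and for 8 of the 11 it lay inside a 1.5-fold change. Their standard errors ran from 0.12 to 0.30 on the log2 scale, against a median of 0.13 over the array. With the replicate number as a block the SE of the dimmer Cacnb4 probe set went from 0.30 to 0.10. That of the brighter one went from 0.21 to 0.13. The SE rose slightly for Cacna1g and both Cacna1d probe sets, and fell for the remaining tested probe sets other than Rem2. Differences that lie inside these intervals cannot be told from no difference in this fit, and an equal level on both sides is not shown.

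Rem2 measured 6.89, 6.70 and 6.53 on contralateral arrays 1, 2 and 3 and 6.10, 6.19 and 6.13 on ipsilateral arrays 1, 2 and 3. The sides did not overlap, and the ipsilateral arrays lay closer together than the contralateral ones. The mean was 6.71 ± 0.18 contralaterally and 6.14 ± 0.05 ipsilaterally (log2, SD, n = 3 each), a difference of -0.57 or 1.48-fold less signal ipsilaterally. Within replicates 1, 2 and 3 the differences were -0.80, -0.51 and -0.39. These values chose the gene, and Rem2 had a single probe set (1448860_at), so no second measurement of it was available.

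The level of choroid plexus genes differed widely among the ipsilateral arrays, and their part in the values of Rem2 was not tested. The choroid plexus secretes cerebrospinal fluid and adjoins the nucleus. Its 8 tested markers averaged 8.18, 7.89 and 7.41 contralaterally and 9.19, 4.87 and 5.09 ipsilaterally, and 8 of 8 were lower on average on the infused side. Ttr, the defining marker, remained at 9.06 or above on every array in each of its 3 probe sets. On the ipsilateral side Rem2 was at 6.10 on array 1, where these markers were highest, and at 6.19 and 6.13 on arrays 2 and 3. On the contralateral side Rem2 and the markers were both highest on array 1 and both lowest on array 3. With the marker level as a covariate the difference of Rem2 was -0.57. With ipsilateral array 1 alone against the contralateral arrays, an alternative chosen after seeing the data, it was -0.61. Both fits use the values that chose the gene and are given as a description only. Over the alternatives run the difference of Rem2 lay between -0.66 and -0.45. Since the gene was chosen on these 6 values, with sides that do not overlap, a negative sign throughout is no support for its difference.

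**Figure D4:**
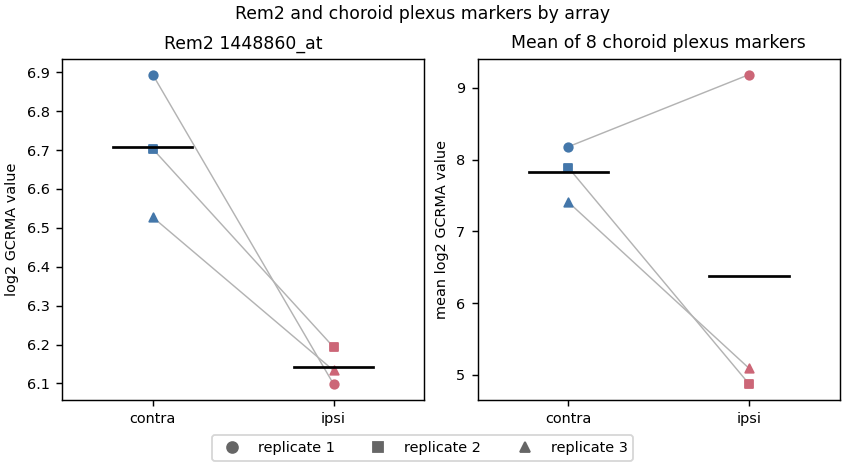
Log2 value of Rem2 (left) and mean log2 value of 8 choroid plexus markers (right) on the contralateral (blue) and ipsilateral (red) arrays, joined by replicate number, with bars at the mean of 3 arrays. Rem2 lies between 6.10 and 6.19 on the ipsilateral arrays, while the markers lie at 9.19 on ipsilateral array 1 and near 5 on the others.

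Gem, the RGK protein first described as induced by mitogens in human T cells, was at the dim end of the array and was not tested. It measured 2.96, 3.01 and 2.63 contralaterally and 2.88, 3.01 and 2.83 ipsilaterally, and the sides overlapped. Rrad, another RGK gene and one known from muscle, was equally close to the floor of the values, at 2.87 to 2.88 contralaterally and 2.61 to 3.20 ipsilaterally. The remaining RGK gene, Rem1, had no probe set under a single symbol and was not measured here. Rem2 was therefore the RGK gene, among those measured, with a signal bright enough to test. The values of Gem and Rrad near the floor do not order the arrays.

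The genes whose pattern over the 6 arrays was most like that of Rem2 were found by Pearson correlation among named tested probe sets, as a description. They were Kcnab1, which encodes an accessory subunit of Kv1 potassium channels (r = 0.99), the nuclear receptor gene Rorb (r = 0.99), Fam20c (r = 0.98), Racgap1 (r = 0.98) and Mmp2 (r = 0.98). Kcnab1 measured 10.11, 9.96 and 9.92 contralaterally and 9.60, 9.67 and 9.65 ipsilaterally. Like Rem2, it had its highest value on contralateral array 1 and its lowest on ipsilateral array 1. As Rem2 was chosen for being low on the infused side, genes like it differ between the sides by construction.

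The remaining genes of the pathway came from lists of other channel subunits, other RGK genes and proteins that bind the channels. Of 32 listed genes 23 were on the array under a single symbol and 13 were tested, each by its brightest probe set. None of the 13 passed in limma, with 5 lower and 8 higher on the infused side, 0 of them at an unadjusted p under 0.05, and a median of 0.06. The dimmer probe set of Tspan13, not among these 13, was at an unadjusted limma p of 0.0106.

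Of the other pore-forming subunits, Cacna1h, a second T-type channel gene, differed by 0.33 (95% interval -0.23 to 0.90) and Cacna1c, the main L-type channel gene of brain and heart, by 0.23. Both tested genes were thus higher on average. Cacna1c was dim (mean 4.29) and differed by 0.10, 0.65 and -0.07 within replicates 1, 2 and 3. Its lowest value, 3.71, was on contralateral array 2. Cacna1h measured 5.21, 4.59 and 5.59 contralaterally and 5.46, 5.42 and 5.51 ipsilaterally, so that its difference, like that of Cacna1g, came largely from a low contralateral array 2. Of the other beta subunits, Cacnb2 differed by -0.36 (95% interval -0.86 to 0.14) and Cacnb1 by 0.06. The alpha2delta gene Cacna2d3 differed by -0.02 (95% interval -0.28 to 0.24).

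Of the gamma subunit genes, whose products mostly act as auxiliary proteins of AMPA receptors, 3 of 8 were tested. Cacng5 differed by 0.21 (95% interval -0.07 to 0.49), Cacng4 by -0.11 and Cacng2, which encodes stargazin, by 0.03. Among the 5 tested channel-binding partners 2 were lower and 3 higher. Tspan13, a tetraspanin reported to bind the N-type channel, differed by -0.22 (95% interval -0.46 to 0.02) for its brighter probe set (1418643_at) and by -0.40 (95% interval -0.67 to -0.13; limma adjusted p = 1.00) for the other (1460239_at). Both of its probe sets were lower in 3 of 3 replicates, as were 13% of all probe sets, and both had every ipsilateral array below every contralateral one, as had 3.44%. The first measured 10.92, 10.77 and 10.96 contralaterally and 10.57, 10.69 and 10.74 ipsilaterally. The second measured 9.58, 9.69 and 9.79 contralaterally and 9.26, 9.16 and 9.45 ipsilaterally, and the probe sets correlated at r = 0.81 over the 6 arrays, a description. The adaptor gene Stac2 differed by 0.09 and Rims2, which encodes an active zone protein that tethers calcium channels, by 0.06.

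**Figure D5:**
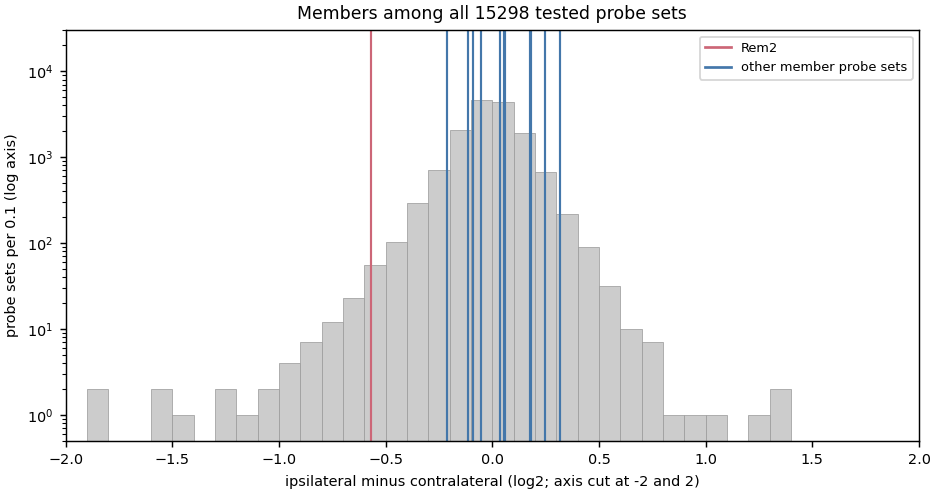
Number of probe sets per 0.1 log2 unit of ipsilateral minus contralateral difference among 15298 tested probe sets (log axis), with vertical lines at the 12 tested probe sets of the set. The 11 lines other than Rem2 lie between -0.21 and 0.32, and Rem2 at -0.57 was chosen for its position.

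Other markers bear on what the pools held. Of 14 markers of the cochlear nucleus 12 were on the array and 8 were bright enough to test. The potassium channel gene Kcna1 had a mean of 11.01, whereas Slc6a5, the glycine transporter gene of inhibitory neurons, had a mean of 3.03 and was not. The mean of the 8 lay between 7.52 and 7.68 contralaterally and between 7.55 and 7.64 ipsilaterally. Single markers varied more than this mean. Contralateral and ipsilateral arrays of replicate 3 were the highest for Hoxa2 (5.87 and 5.80), as for 18% of all probe sets. For Kcnc1 they were the lowest (8.18 and 7.95), as for 14.9%. Means of pan-neuronal markers lay between 10.33 and 10.54 and between 10.30 and 10.65, of oligodendrocyte markers between 12.66 and 12.92 and between 12.86 and 12.92, and of vascular endothelial markers between 6.23 and 6.27 and between 6.05 and 6.35. Microglial markers lay between 6.98 and 7.18 and between 7.14 and 7.29, and astrocyte markers between 10.18 and 10.35 and at 10.36. On average 8 of 8 oligodendrocyte, 10 of 11 microglial, 8 of 9 astrocyte, 7 of 15 pan-neuronal, 3 of 8 endothelial, 6 of 11 cerebellar and 5 of 8 cochlear nucleus markers were higher on the infused side, where 51.8% of all probe sets were lower. Of the microglial markers 3 of 11 were higher at an unadjusted limma p under 0.05, against 1.16% of all probe sets, and 0 passed after adjustment. The part of these cell types in the differences above was not tested.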

How the data were processed

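The deposited values are log2 expression values per probe set, which the authors made with GCRMA, per the submitters' processing notes, which name no version. That they are log2 follows from their range (1.40 to 16.0), and array medians lay between 5.86 and 5.91. Side and replicate number were taken from each sample's description. Gene names came from the platform annotation, and probe sets with 1 symbol were used by name (20393 of 22690, with 691 having several symbols and 1606 none). The 64 control probe sets and 7328 with a mean at or below 4 were left out.

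The test was limma 3.58.1 in R 4.3.3 (lmFit, eBayes), ipsilateral minus contralateral over 15298 probe sets without a block. It was checked on simulated data with independent noise, which lacked the replicate and choroid plexus patterns of these arrays. The simulated differences were larger than those of the tested members. Each pool is described as a biological replicate, and arrays give no read depth, so their number limits the precision. The members, gene lists and tests were chosen with earlier results of these data known. All members were named, and from each pathway list up to 3 genes by smallest p. As 1 ear was infused, arrays of 1 number may be both sides of the same mice, which the labels do not state. The replicate block, other filters, scalings, variance models, a choroid plexus covariate and left-out arrays were alternatives.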

Additional observations from a re-analysis of the deposited data

How the results depend on the processing

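With the replicate number as a block the difference of Rem2 was -0.57. The count at an unadjusted limma p under 0.05 over the array was then 569 in place of 364, with 0 past the adjusted threshold. That count was 233 with a mean above 6, where fewer probe sets were tested, and 571 without both ipsilateral arrays low in choroid plexus markers, where the lone ipsilateral array is assumed to vary like the contralateral ones; the cause of the latter was not tested. With 1 array or 1 replicate number left out it ranged from 300 to 524, and the count past the adjusted threshold from 0 to 5. The 5 came without ipsilateral replicate 1 and 2 came without replicate 1 of both sides, and all were choroid plexus genes lower on the infused side (Kl, Sostdc1, Kcne2, Folr1 and Ttr, named after their values were seen). No count past the adjusted threshold differed from 0 under the remaining alternatives. Of the members, the brighter Cacna1a probe set moved by more than 1 SD without both low ipsilateral arrays, and the dimmer Cacna1d probe set (0.76) without replicate 1 of both sides. Members other than Rem2 reached an unadjusted limma p under 0.05 only when replicate 1 was left out: Cacna2d2 without contralateral replicate 1, Cacna1a without ipsilateral replicate 1, and Cacna1d and Cacna2d2 without both, none after adjustment. The block changed no call of a member. Whether the numbers pair the samples is not settled: after removal of the side means, arrays of 1 number gave r = 0.09, 0.04 and 0.57 across probe sets, arrays of unlike numbers gave -0.37 to 0.30, and not every array correlated best with its own number. Cacna2d2 stayed positive and Cacna1b negative in every alternative run for their tested probe sets, whereas each other member's tested probe sets, Rem2 apart, changed sign in at least 1. Averaging all tested probe sets of a gene turned Cacna1d from -0.11 to 0.10. The arrays hold no measure of detection, so for the dim probe sets of Cacna1b, Cacna2d1, Cacna2d2 and Gem signal over background was not measured.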

Other observations

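Gem was dim, with all values between 2.63 and 3.01, and the probe sets most like it over the 6 arrays are named only because the rule for named genes asked for them; with Gem near the floor, these correlations show no shared pattern. They belonged to Rit1, a Ras-like GTPase gene (r = 0.99), Dcaf11 (r = 0.99), Uqcrh (r = 0.99), Tob2 (r = 0.99) and Etf1 (r = 0.99).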
